A study of Mus musculus with 20 samples.

Results

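The comparison described here concerns the effect of adding Dnmt3a loss to Bcor loss in LSK cells, the lineage-negative, Sca-1-positive, Kit-positive bone marrow fraction that holds hematopoietic stem and early progenitor cells. It was chosen by genotype and cell fraction and sets 2 libraries labelled Bcor-/-Dnmt3a-/- LSK against 2 libraries labelled Bcor-/- LSK, 4 of the 20 RNA-seq libraries in the series. The other libraries are 3 WT and 3 Dnmt3a-/- LSK libraries and the MEP (megakaryocyte-erythroid progenitor) libraries with the same mouse labels. The strain label of every mouse was C57BL/6. The mutant mice carried conditional alleles and Mx1-Cre, an interferon-inducible Cre transgene that was switched on with pIpC (polyinosinic-polycytidylic acid), so deletion was not limited to one blood lineage. Bcor-/- mice lost an internal stretch of Bcor exons, Dnmt3a-/- mice lost Dnmt3a, Bcor-/-Dnmt3a-/- mice lost both, and WT mice had untargeted genes. The label of Bcor-/- replicate 1 names a pair of mice and every other label 1 mouse, and the labels give no age or stage of disease. The study states one number of mice for all genotypes in this experiment, which is not the number of libraries analysed here. The study calls the Bcor-/-Dnmt3a-/- mice of its RNA comparison leukemic, so genotype, disease and age cannot be told apart in this comparison. The deposited values are FPKM, a fragment count corrected for transcript length and library total, for 24315 genes. Genes averaging 1 FPKM or more across the 4 libraries, 12017 in all, were tested.

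BCOR is a corepressor that joins BCL6 to a variant Polycomb complex, PRC1.1, which places ubiquitin on histone H2A at unmethylated CpG islands. DNMT3A is the de novo DNA methyltransferase that stem cells use when they leave self-renewal for differentiation, and both genes are recurrently mutated in myeloid leukemia. The LSK fraction gives rise to all blood lineages: GATA2, HLF, MEIS1 and MECOM maintain the stem cell state, GATA1 and KLF1 drive the red cell program of globin, heme and membrane genes, C/EBP factors and GFI1 drive granulocytes, and EBF1 and PAX5 fix B cell identity. A change in bulk RNA from such a fraction can come from fewer cells of a type or from less RNA per cell, and these cannot be told apart here.

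The libraries were first compared with their labels. Of the 9 markers of the LSK gate and stem cells, the summed level was 850 and 574 FPKM in Bcor-/- and 182 and 374 FPKM in Bcor-/-Dnmt3a-/- LSK, against 1114 to 1300 FPKM in WT. Ly6a, which encodes Sca-1 and defines the gate, was present at 107 and 31.1 FPKM in Bcor-/- and 63.5 and 220.2 FPKM in Bcor-/-Dnmt3a-/- LSK, and the groups overlapped. Kit, the other gate antigen, was lower in both Bcor-/-Dnmt3a-/- libraries, at 47.7 and 19.4 FPKM against 118 and 123 FPKM. Markers of some cells that the lineage gate removes were high and those of others low. The 4 B cell markers summed to 1211 and 830 FPKM in Bcor-/-Dnmt3a-/- LSK against 33.8 and 4.74 FPKM in Bcor-/-, and the 8 erythroid markers to 5339 and 20514 FPKM against 184 and 222 FPKM. The 6 macrophage markers summed to 1446 FPKM in Bcor-/-Dnmt3a-/- mouse 1 and 44.5 FPKM in mouse 2, against 287 and 224 FPKM in Bcor-/-. The T and NK markers summed to 130 and 388 FPKM against 466 and 626 FPKM in Bcor-/-, where Nkg7, which is also on the primary granule list, held nearly all of it. The granulocytic markers summed to 7559 and 7530 FPKM in Bcor-/-Dnmt3a-/- LSK against 15945 and 22854 FPKM in Bcor-/-, the megakaryocytic markers to 16.1 and 49.3 FPKM against 152 and 115 FPKM, and the mast and basophil markers to 11.8 and 44.4 FPKM against 61.8 and 104 FPKM. None of the 9 LSK markers was listed at 0 in any LSK library. The LSK and MEP libraries of Bcor-/-Dnmt3a-/- mouse 1 had a Pearson r of 0.970 across 11119 genes, whereas this value lay between 0.786 and 0.878 for the other 9 mouse labels. The libraries labelled Bcor-/-Dnmt3a-/- LSK thus went against several markers of the labelled fraction. The part of such cells in the differences below was not tested.

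**Figure D1:**
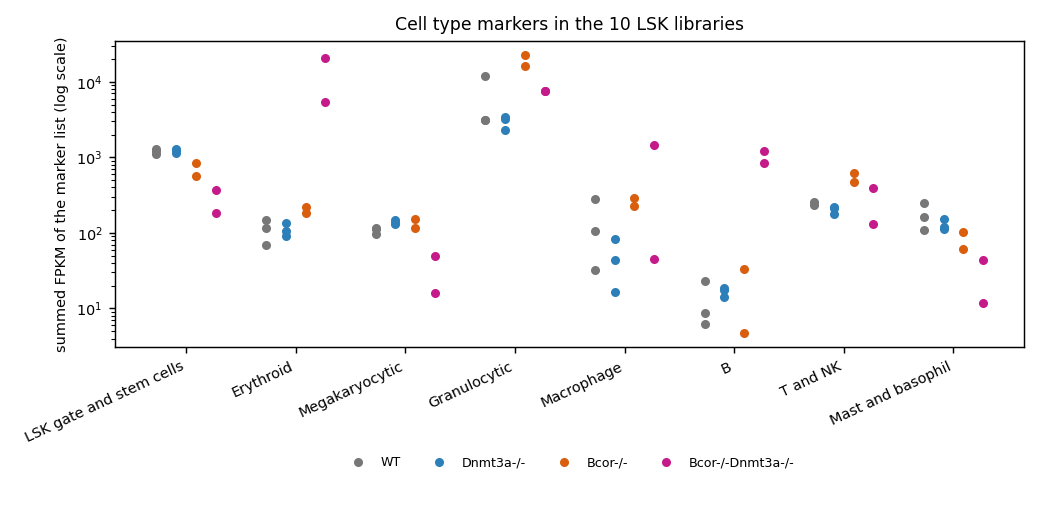
Summed FPKM of each cell type marker list (log axis) in the 10 LSK libraries, 1 point a library, coloured by genotype. The Bcor-/-Dnmt3a-/- points are the lowest for LSK and stem cell markers (182 and 374 FPKM) and the highest for erythroid (5339 and 20514 FPKM) and B cell markers (1211 and 830 FPKM).

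The targeted genes gave only a partial check. Dnmt3a was at 13.9 and 14.1 FPKM in Bcor-/- and at 10.4 and 10.9 FPKM in Bcor-/-Dnmt3a-/- LSK, a log2 fold change of -0.37 ± 0.19 (SE, n = 2 and 2) that was not called. Bcor was at 22.4 and 23.2 FPKM and at 24.0 and 37.4 FPKM, against 29.5 to 32.4 FPKM in WT, and it was called higher without Bcor-/-Dnmt3a-/- replicate 1 (0.69). Values over a whole gene count transcripts that lack the deleted exons, so they do not show whether the deletion occurred. The study describes the message left by its Bcor deletion as unstable and Dnmt3a loss in leukemic double mutants as complete, and the levels here were not low in that way. The study reports that Bcor message was not detectable by PCR in LSK cells of its Bcor-/- mice and that the protein was lost in lineage-negative marrow. The levels of the targeted genes thus could not settle the labels either way, and each genotype name in the text stands for the libraries that carry that label. The libraries' relative depth, read from their lowest values, ran from 0.756 to 1.17 with Bcor-/- replicate 1 at 1. The Bcor-/- pair was much closer than the Bcor-/-Dnmt3a-/- pair: 179 genes (1.49%) differed more than 2-fold between the Bcor-/- libraries and 2416 (20.1%) between the Bcor-/-Dnmt3a-/- libraries.

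With 2 libraries a side, 2578 of the 12017 genes (21.5%) passed the call used here, an unadjusted limma p under 0.05 with a fold change above 1.5. Of these, 1380 (11.5% of all genes tested) were higher and 1198 (9.97%) were lower in Bcor-/-Dnmt3a-/- LSK. After Benjamini-Hochberg adjustment over all genes limma called 1 gene, Mir703, a short miRNA gene named after its values were seen. Mir703 was listed at 0 in both Bcor-/- libraries and at 223 and 257 FPKM in Bcor-/-Dnmt3a-/- LSK (adjusted p = 0.00914), but also at 338 FPKM in 1 of the 3 WT LSK libraries and at 293 and 125 FPKM in Bcor-/- MEP. An exact 0 in such a file may be a failed estimate, so what this call measures is uncertain. The next lowest adjusted p was 0.066, so single calls below are unadjusted unless stated. A total of 2822 genes had an unadjusted p under 0.05. Without Bcor-/- replicate 1 the call count was 884 and without replicate 2 it was 785. Without Bcor-/-Dnmt3a-/- replicate 1 it was 4839 and without replicate 2 it was 3887, since the spread then comes from the close Bcor-/- pair. Quantile normalization turned the split to 1134 higher and 1515 lower. A gene below 1 FPKM in one group was tested only through its level in the other, so list counts are also given over the 11007 genes at 1 FPKM or more in both groups, a choice made after the data were seen. Of these, 10.5% were called higher and 9.68% lower.

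Genes of the late red cell program were higher in Bcor-/-Dnmt3a-/- LSK. Of 4 globin genes tested 3 rose, of 18 heme synthesis genes 12 rose and 1 fell, and of 25 red cell membrane and cytoskeleton genes 17 rose and none fell by the call rule. The background was 11.5% of all genes called higher, and the lists' median log2 fold changes were 6.28, 0.86 and 1.69 against -0.01 for all genes. At 1 FPKM or more in both groups were 3 globin genes, which all rose, the same 18 heme genes and 23 membrane genes, of which 15 rose (median 1.62). Hba-a1, an alpha globin gene, was at 33.1 and 43.4 FPKM in Bcor-/- and at 1810.0 and 6837 FPKM in Bcor-/-Dnmt3a-/- LSK, a log2 fold change of 6.50 ± 0.68. Hbb-b1, an adult beta globin gene, was at 62.5 and 45.5 FPKM in Bcor-/- and at 2825 and 12338 FPKM. Both Bcor-/-Dnmt3a-/- libraries were far above every other LSK library, with mouse 2 above mouse 1. Globin copies are near-identical, so how reads were split among them is uncertain: Hbb-bs was at 0.0101 FPKM in mouse 1 and 103 FPKM in mouse 2.

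Alas2, the erythroid form of the first enzyme of heme synthesis, was at 1.72 and 1.04 FPKM in Bcor-/- and at 120.4 and 469 FPKM in Bcor-/-Dnmt3a-/- LSK (log2 fold change 6.66 ± 0.69). Alas1, the form used by other cells, moved the other way, from 151 and 231 FPKM to 27.2 and 41.1 FPKM (-2.45 ± 0.32). Alas1 in WT LSK was 29.0 to 51.9 FPKM, so the Bcor-/- libraries stood above the other genotypes. Fech, which inserts iron into heme, rose from 24.8 and 32.0 FPKM to 78.0 and 163 FPKM, and Slc25a37, the mitochondrial iron importer mitoferrin 1, from 33.6 and 40.4 FPKM to 108 and 197 FPKM. Slc4a1, the band 3 anion exchanger of the red cell membrane, rose from 2.67 and 3.01 FPKM to 223 and 437 FPKM (6.35 ± 0.37), the smallest unadjusted p of its list. Tmod1, which caps actin in the membrane skeleton, rose from 0.708 and 1.13 FPKM to 16.3 and 25.6 FPKM. Tmod1 averaged below 1 FPKM in Bcor-/- LSK.

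The promoter of Alas2 is shown because it opens the heme pathway that moved. It is the RefSeq window from 250 bases before to 50 after the gene start in GRCm38.p6, plus strand, chrX:150547167-150547466, with capitals marking the GATA-factor letters AGATAA on either strand. The build differs from the mm9 build named in the submitters' processing notes, so the window is read by gene symbol.
Alas2: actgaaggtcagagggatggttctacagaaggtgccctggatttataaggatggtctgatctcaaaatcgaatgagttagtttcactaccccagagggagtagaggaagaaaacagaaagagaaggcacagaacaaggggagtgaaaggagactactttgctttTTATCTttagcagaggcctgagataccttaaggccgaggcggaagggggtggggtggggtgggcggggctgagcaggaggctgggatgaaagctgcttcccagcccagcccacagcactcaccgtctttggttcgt
The window holds 1 match, in reverse orientation, starting 86 bases before the gene start. Of the 27025 promoters of this length in the table, 11.4% hold such a match. Only 9185 of the 12017 tested genes had a promoter in the table, and 6.49% of these hold such a match. No share over lists is given. A match is a description and not a shown binding site.

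Of 20 erythroid transcription factors 5 rose and 2 fell, where 11.5% of all genes were called higher and 9.97% lower, with a median log2 fold change of 0.38. Gata1 was at 18 and 34.3 FPKM in Bcor-/- and 44.1 and 43.5 FPKM in Bcor-/-Dnmt3a-/- LSK (0.79 ± 0.34, not called). Klf1 was at 16.1 and 35.4 FPKM and at 52.0 and 35.3 FPKM (0.81 ± 0.44, not called). Both were called higher without Bcor-/- replicate 2 (1.24 and 1.36), and Gata1 also with 1 variance over all 10 LSK libraries. The Bcor-/- libraries already stood above WT for both, where Gata1 was 7.83 to 12.9 FPKM and Klf1 1.96 to 6.05 FPKM. Tal1, a shared stem and erythroid factor, was at 36.9 and 40.6 FPKM and at 38.2 and 37.5 FPKM. E2f2, a cell cycle factor of terminal erythroid cells, rose from 9.77 and 11.5 FPKM to 60.4 and 90.1 FPKM (2.69 ± 0.26), and Klf3 from 14.9 and 18.1 FPKM to 40.9 and 41.1 FPKM. The members that fell were Lmo2, from 437 and 344 FPKM to 126 and 156 FPKM, and Nfe2, from 148 and 135 FPKM to 49.0 and 76.1 FPKM, both also used by stem or megakaryocytic cells. Nfe2 lost its call without Bcor-/- replicate 1.

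Erythropoietin signalling genes gave 5 higher and 1 lower of 16, and 4 higher and 1 lower of the 15 at 1 FPKM or more in both groups, where 10.5% and 9.68% of all such genes were called. Epor, the receptor, was at 10.6 and 19.1 FPKM in Bcor-/- and 26.5 and 17.4 FPKM in Bcor-/-Dnmt3a-/- LSK, and the groups overlapped (0.56 ± 0.37). Bcl2l1, which encodes the survival protein BCL-XL, rose from 9.60 and 7.62 FPKM to 35.1 and 39.7 FPKM (2.0 ± 0.21). Socs2, a feedback inhibitor of STAT5 signalling, rose from 3.56 and 1.91 FPKM to 67.8 and 20.7 FPKM, and Fam132b, the gene of the iron hormone erythroferrone, from 0.256 and 0.658 FPKM to 12.9 and 9.57 FPKM, tested only through the latter. Among 15 iron genes 2 rose and 2 fell, close to the shares of all genes called (11.5% and 9.97%): Tfrc, the transferrin receptor, rose from 48.7 and 63.4 FPKM to 175 and 211 FPKM (1.77 ± 0.22), whereas Tfr2 fell from 29.7 and 29.3 FPKM to 10.4 and 8.59 FPKM (-1.54 ± 0.19). Red cell enzymes gave 10 higher and 1 lower of 20, and organelle clearance genes 6 higher and 2 lower of 21. Trim10, a ubiquitin ligase of terminal erythroid cells, rose from 2.12 and 2.10 FPKM to 38.6 and 89.7 FPKM.

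**Figure D2:**
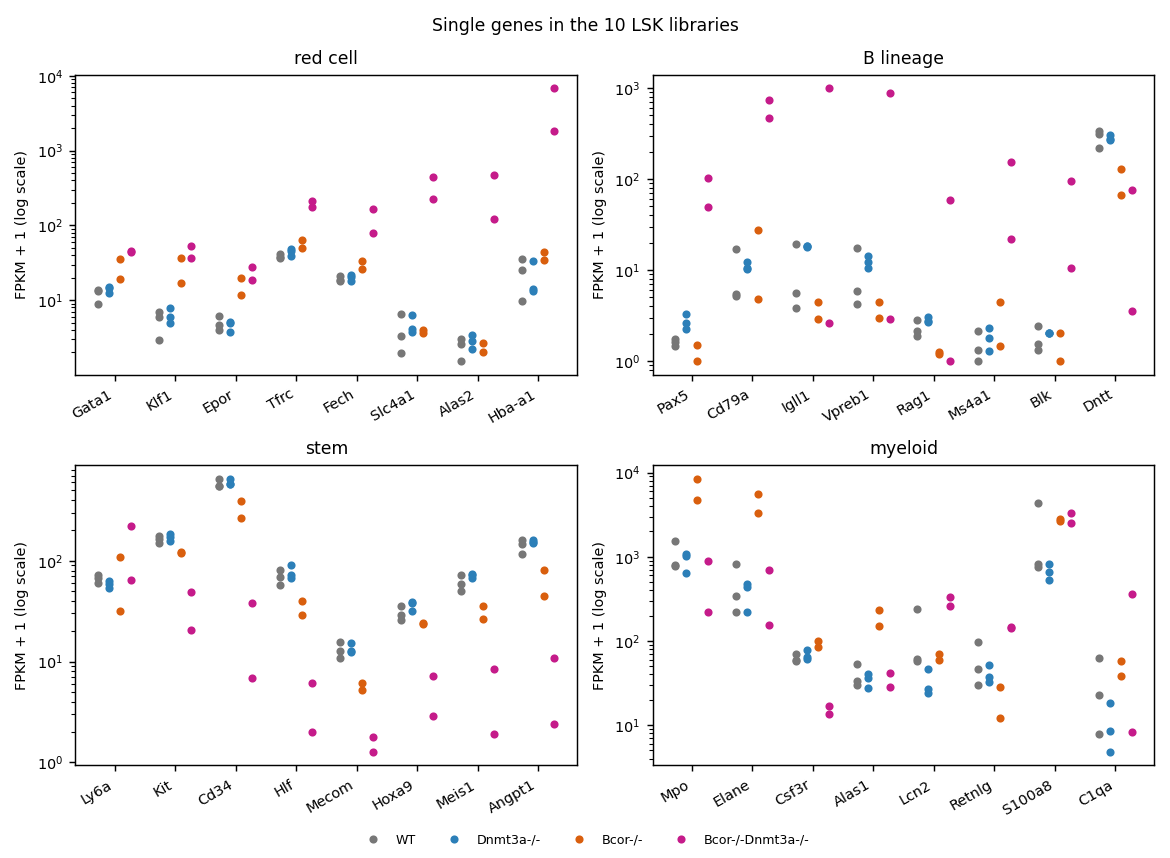
FPKM + 1 (log axis) of single genes in the 10 LSK libraries, 1 point a library, coloured by genotype, in 4 panels by lineage. Slc4a1, Alas2 and Hba-a1 lie far above the other genotypes in both Bcor-/-Dnmt3a-/- libraries while Gata1 and Klf1 do not, and Igll1 and Vpreb1 are high in 1 of the 2 Bcor-/-Dnmt3a-/- libraries (996 and 878 FPKM).

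Stem cell genes were lower. Of 26 stem cell transcription factors 14 fell and none rose by the call rule, where 9.97% of all genes were called lower, and the median log2 fold change was -1.44. Of these factors 3 were below 1 FPKM in Bcor-/-Dnmt3a-/- LSK and were tested only through their level in Bcor-/-. Over the 23 at 1 FPKM or more in both groups 11 fell (median -1.34). Hlf, which marks long-term stem cells, fell from 39.1 and 28.0 FPKM to 1.01 and 5.18 FPKM (-3.27 ± 0.60). Meis1 fell from 34.7 and 25.6 FPKM to 0.930 and 7.53 FPKM, Gata2 from 33.5 and 26.8 FPKM to 3.74 and 10.1 FPKM, and Mecom, also known as Evi1, from 5.17 and 4.19 FPKM to 0.278 and 0.789 FPKM. In every one of these genes both Bcor-/-Dnmt3a-/- libraries were below both Bcor-/- libraries, and the Bcor-/- libraries were below all 3 WT libraries (Hlf 57.1 to 80.5 FPKM, Mecom 9.97 to 14.8 FPKM). Runx1, Fli1, Msi2 and Hhex were not called. Without Bcor-/- replicate 1 the calls of Gata2, Meis1 and Mecom were lost, and without replicate 2 those of Meis1 and Mecom.

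Of 13 Hox genes tested, 2 fell and none rose by the call rule (median -0.61), where 9.97% of all genes were called lower, and 3 were below 1 FPKM in Bcor-/- and 2 in Bcor-/-Dnmt3a-/- LSK. Of the 8 at 1 FPKM or more in both groups 2 fell (median -1.44), where 9.68% of all such genes were called lower. Hoxa9 fell from 22.9 and 22.4 FPKM to 1.87 and 6.21 FPKM (-2.38 ± 0.49) and Hoxa10 from 7.23 and 6.49 FPKM to 0.636 and 1.46 FPKM. A pair of neighbouring HoxB genes differed between the mice instead: Hoxb7 was listed at 0 in both Bcor-/- libraries and was at 28.4 FPKM in Bcor-/-Dnmt3a-/- mouse 1 and 0.408 FPKM in mouse 2, and Hoxb8 at 30.7 FPKM in mouse 1 and 0 in mouse 2. Neither was called in the main fit, though each was called higher without mouse 2. With both mice kept, Hoxb8 was called higher (2.31) over all 10 LSK libraries with 1 weight a genotype. Hoxb7 gained a call under 3 of the 15 alternative settings that tested it. Hoxa10 lost its call without Bcor-/- replicate 1.

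Stem and progenitor surface genes gave 7 lower and 2 higher of 22, where 9.97% of all genes were called lower and 11.5% higher, and 7 lower and 1 higher of the 21 at 1 FPKM or more in both groups. Cd34, the progenitor sialomucin, fell from 391 and 265 FPKM to 5.87 and 37.3 FPKM (-4.31 ± 0.87). Procr fell from 22.6 and 14.5 FPKM to 0.762 and 5.21 FPKM, and Cd27 from 99.1 and 71.8 FPKM to 8.51 and 28.9 FPKM. The members that rose were Slamf1 (CD150), from 0.874 and 0.346 FPKM to 3.69 and 2.14 FPKM and so tested only through the latter, and Il7r, the interleukin 7 receptor of lymphoid progenitors, from 1.28 and 1.43 FPKM to 194 and 32.7 FPKM. Of 10 angiopoietin and endothelial-like genes 7 fell and 1 rose (median -2.25), and of the 8 at 1 FPKM or more in both groups 6 fell and 1 rose (median -2.92). Angpt1 fell from 80.3 and 43.4 FPKM to 1.39 and 9.89 FPKM, Adgrl4 from 127 and 85.7 FPKM to 2.02 and 13.8 FPKM, and the cation transporter Slc22a3 from 38.7 and 26.0 FPKM to 1.07 and 2.15 FPKM (-3.68 ± 0.35). Megakaryocyte and platelet genes gave 7 lower and 1 higher of 25, of which 5 were tested only through their level in Bcor-/-, and 5 lower and 1 higher of the 19 at 1 FPKM or more in both groups (median -0.48). Among them, Pf4, platelet factor 4, fell from 86.8 and 66.6 FPKM to 4.08 and 19.4 FPKM and Itga2b from 45.8 and 32.6 FPKM to 3.67 and 18.9 FPKM. Procr, Slamf1 and Itga2b lost their calls whichever Bcor-/- library was left out, and Cd27, Angpt1 and Pf4 without replicate 1.

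Early and late granulocyte genes moved in opposite directions. Of 14 primary granule genes 13 fell (median -3.07), where 9.97% of all genes were called lower, and Cebpa, the exception, was at 44.1 and 52.7 FPKM and at 3.09 and 26.4 FPKM. Mpo, myeloperoxidase, fell from 4710.0 and 8426 FPKM to 221 and 891 FPKM (-3.82 ± 0.78), Elane, neutrophil elastase, from 3351 and 5593 FPKM to 154 and 703 FPKM, and Ctsg, cathepsin G, from 1540.3 and 2252 FPKM to 56.1 and 258 FPKM. This difference rests on a high level in Bcor-/- LSK: the list summed to 14446 and 23375 FPKM in Bcor-/-, 824 and 3033 FPKM in Bcor-/-Dnmt3a-/-, 1971 to 4217 FPKM in WT and 1661 to 2854 FPKM in Dnmt3a-/- LSK, so Bcor-/-Dnmt3a-/- mouse 2 lay within the WT range and mouse 1 below it. Of 15 late neutrophil genes 9 rose and 1 fell (median 1.78), where 11.5% of all genes were called higher. Retnlg rose from 27.1 and 11.3 FPKM to 142 and 144 FPKM (2.96 ± 0.43), Lcn2, lipocalin 2, from 68.7 and 59.0 FPKM to 331 and 257 FPKM and Ngp, neutrophilic granule protein, from 180.0 and 182 FPKM to 631 and 617 FPKM. S100a8 at 2796 and 2648 FPKM against 3340.1 and 2493 FPKM and Camp at 558 and 619 FPKM against 566 and 715 FPKM, both abundant, were not called. Csf3r, the G-CSF receptor and the list's decrease, fell from 84.5 and 98.4 FPKM to 12.4 and 15.8 FPKM (-2.62 ± 0.21). Lcn2 and Ngp lost their calls in the fit over all 10 LSK libraries with 1 variance weight a genotype. WT replicate 2 also stood high, with Lcn2 at 237 FPKM and Ngp at 814 FPKM. Of 21 monocyte and macrophage genes 3 rose and none fell by the call rule, close to the 11.5% of all genes called higher. One of them was the scavenger receptor Marco, from 1.21 and 0.160 FPKM to 34.0 and 5.43 FPKM, which was tested only through the latter, and 2 of the 20 at 1 FPKM or more in both groups rose. Of 11 mast cell, basophil and eosinophil genes 4 fell and 1 rose, and of the 9 at 1 FPKM or more in both groups 4 fell and none rose by the call rule. Cpa3, the mast cell carboxypeptidase, fell from 23.2 and 26.9 FPKM to 0.792 and 5.77 FPKM and Hdc, which makes histamine, from 68.1 and 105 FPKM to 9.87 and 11.3 FPKM. WT LSK lay at 6.43 to 20.1 FPKM for Hdc, below the Bcor-/- libraries, and at 36.5 to 50.5 FPKM for Cpa3, above them. Without Bcor-/- replicate 2 Marco and Cpa3 were not called, nor was Nkg7, described with the T and NK genes.

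Lymphoid genes were higher. Of 20 B-lymphoid genes 12 rose and none fell by the call rule (median 4.05), though 6 of the 20 were below 1 FPKM in Bcor-/- LSK and were tested only through their level in Bcor-/-Dnmt3a-/-. Over the 14 at 1 FPKM or more in both groups 8 rose (median 3.88), where 10.5% of all such genes were called higher. Pax5, Cd22, Blk and Rag1 were not among the 14. Pax5 rose from 0.490 and 0 FPKM to 102 and 48.4 FPKM (5.87 ± 0.46), Cd79a, a subunit of the B cell receptor, from 26.8 and 3.77 FPKM to 736 and 466 FPKM, and Cd22 from 0.802 and 0.696 FPKM to 41.0 and 37.9 FPKM. The stage-specific genes split the mice. The surrogate light chain genes of pre-B cells, Igll1 and Vpreb1, were at 996 and 878 FPKM in Bcor-/-Dnmt3a-/- mouse 1 and at 1.60 and 1.88 FPKM in mouse 2, and Rag1, the recombinase, was at 57.4 FPKM in mouse 1 and listed at 0 in mouse 2. The mature B cell gene Ms4a1 (CD20) went the other way, at 20.9 FPKM in mouse 1 and 154 FPKM in mouse 2, and so did Blk, at 9.47 and 94.5 FPKM. Ms4a1 and Blk were not called without Bcor-/- replicate 2. Dntt, the terminal transferase of early lymphoid progenitors, was at 128 and 65.2 FPKM in Bcor-/- and at 2.58 and 75.5 FPKM in Bcor-/-Dnmt3a-/- LSK, against 219.7 to 333 FPKM in WT.

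Of 26 T and NK cell genes 21 rose and 1 fell (median 2.84), but 12 of them were below 1 FPKM in Bcor-/- LSK and were tested only through their level in Bcor-/-Dnmt3a-/-. Over the 14 at 1 FPKM or more in both groups 10 rose and 1 fell (median 2.56), where 10.5% and 9.68% of all such genes were called. Cd3g, a subunit of the T cell receptor complex, rose from 0.199 and 0.170 FPKM to 12.3 and 57.3 FPKM (4.56 ± 0.76), Tcf7, the T cell factor TCF-1, from 0.990 and 1.06 FPKM to 30.4 and 60.8 FPKM, and the chemokine gene Ccl5 from 5.64 and 2.02 FPKM to 123 and 369.6 FPKM. Cd8b1 was listed at 0 in both Bcor-/- libraries and at 6.53 and 52.5 FPKM in Bcor-/-Dnmt3a-/- LSK. Nkg7, which is also in the primary granule list, fell from 448 and 615 FPKM to 56.8 and 162 FPKM. Gimap4, a GTPase gene of lymphocytes, was among the 8 largest increases once some genes were left out by symbol and Mir703 was not counted. It rose from 4.74 and 0.798 FPKM to 318 and 204 FPKM (6.32 ± 0.63). These levels stood beside the raised B cell marker sums given above. The T and NK marker sums given above were lower instead, and Nkg7 held nearly all of that sum in Bcor-/- LSK.

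MHC class II molecules present antigen on B cells, dendritic cells and macrophages, and 10 of 11 genes of this group rose (median 2.15), where 11.5% of all genes were called higher. Of the 10 at 1 FPKM or more in both groups 9 rose. Cd74, the invariant chain, rose from 233 and 99.2 FPKM to 1054 and 2723 FPKM (3.47 ± 0.65), H2-Aa from 124 and 48.7 FPKM to 582 and 1029.7 FPKM, H2-Eb1 from 45.2 and 19.7 FPKM to 264 and 395 FPKM, and Ciita, their common transactivator, from 1.94 and 1.25 FPKM to 6.48 and 14.4 FPKM. Ciita lost its call without Bcor-/- replicate 2. WT LSK libraries lay at 104 to 250.2 FPKM for H2-Aa. The promoters of H2-Aa (minus strand, chr17:34287774-34288073) and H2-Eb1 (plus strand, chr17:34305617-34305916), from the same RefSeq table and build, are shown because their genes rose together. Capitals mark the Y box letters CTGATTGG, searched on both strands.
H2-Aa: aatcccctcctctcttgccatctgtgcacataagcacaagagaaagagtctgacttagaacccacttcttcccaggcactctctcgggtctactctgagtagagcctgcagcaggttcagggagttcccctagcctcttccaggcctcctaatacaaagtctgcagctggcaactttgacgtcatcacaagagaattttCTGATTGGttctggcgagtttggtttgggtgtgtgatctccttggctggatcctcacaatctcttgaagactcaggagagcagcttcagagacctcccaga
H2-Eb1: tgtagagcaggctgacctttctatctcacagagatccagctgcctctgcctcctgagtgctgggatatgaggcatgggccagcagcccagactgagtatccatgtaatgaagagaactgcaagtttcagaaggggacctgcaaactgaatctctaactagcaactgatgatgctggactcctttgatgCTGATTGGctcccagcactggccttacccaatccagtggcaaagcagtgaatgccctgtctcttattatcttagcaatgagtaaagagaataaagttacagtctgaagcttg
Each window holds 1 match, starting 51 bases before the gene start in H2-Aa and 62 in H2-Eb1. Of all RefSeq promoters of this length 4.31% hold it, and of those of tested genes 5.99%.

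Interferon-stimulated genes gave 8 higher and none lower of 30 (median 0.94), and 7 higher of the 29 at 1 FPKM or more in both groups, where 10.5% of all such genes were called higher. Irf7, the interferon-inducible regulator, rose from 14.6 and 9.29 FPKM to 89.2 and 58.3 FPKM (2.53 ± 0.33), Isg15, a ubiquitin-like modifier, from 11.9 and 9.44 FPKM to 47.3 and 62.1 FPKM (2.25 ± 0.23), and Rsad2, viperin, from 5.06 and 2.49 FPKM to 21.9 and 27.1 FPKM. The family was not uniform, and Ifit1 at 4.05 and 1.82 FPKM against 6.78 and 1.45 FPKM, Ifit2 and Oasl2 overlapped between the groups. The Isg15 promoter (RefSeq, GRCm38.p6, minus strand, chr4:156200769-156201068) is shown with capitals marking the interferon-stimulated response element letters, GAAA and GAAA with 2 bases between, on either strand.
Isg15: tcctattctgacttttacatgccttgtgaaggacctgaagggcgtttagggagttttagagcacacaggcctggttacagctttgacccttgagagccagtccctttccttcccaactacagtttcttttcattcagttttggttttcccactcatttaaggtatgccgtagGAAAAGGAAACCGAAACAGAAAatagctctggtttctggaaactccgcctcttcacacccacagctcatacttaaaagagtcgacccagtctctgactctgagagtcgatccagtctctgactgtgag
The window holds 3 overlapping matches, starting 78, 72 and 66 bases before the gene start. Of all RefSeq promoters of this length 3.49% hold at least 1, and of those of tested genes 3.21%.

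**Figure D3:**
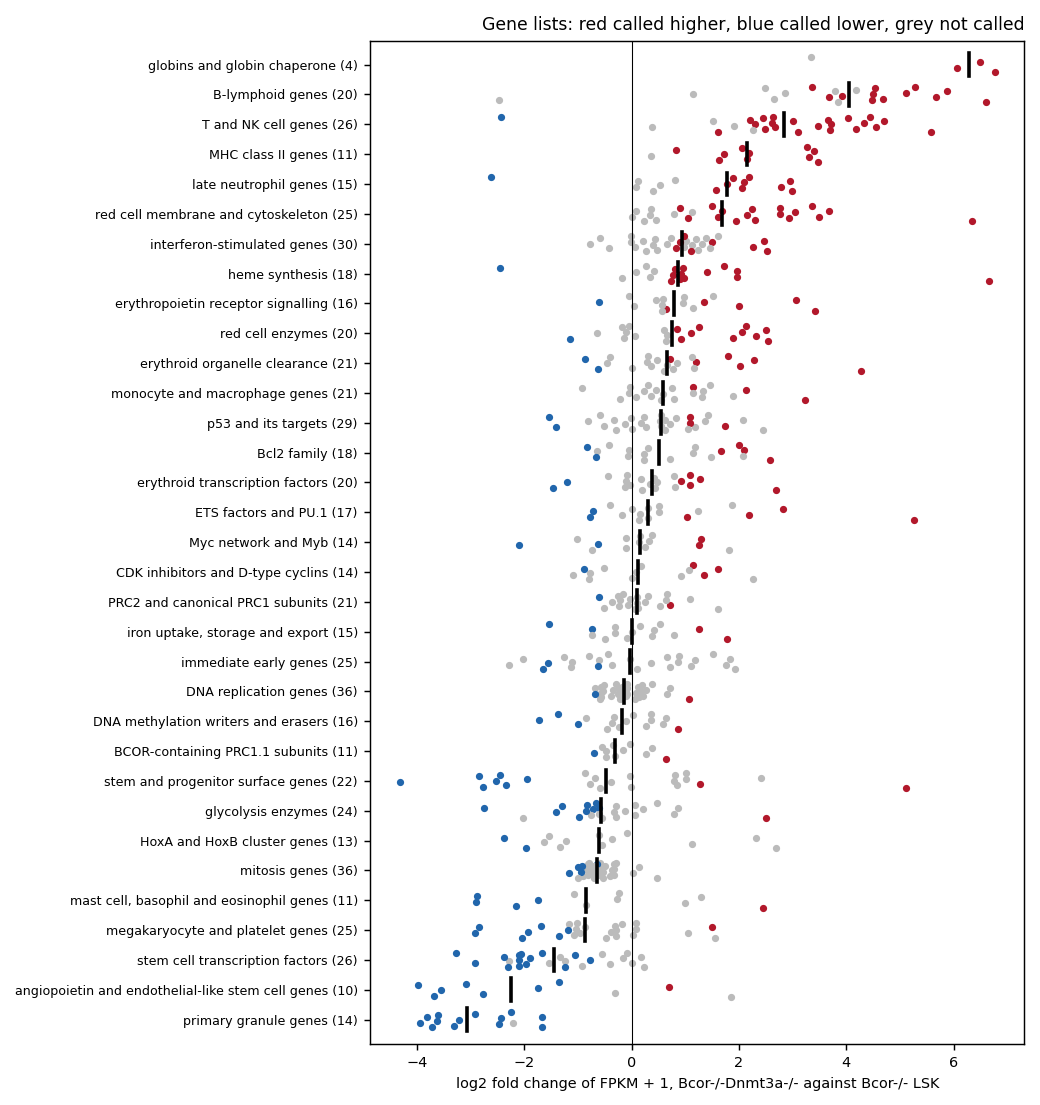
Log2 fold change of FPKM + 1 (x axis) for every tested member of 33 gene lists, 1 point a gene, black bars at the medians and the number tested in brackets. Globin, B-lymphoid and T and NK lists have the highest medians (6.28, 4.05 and 2.84), with 6 of the B-lymphoid and 12 of the T and NK genes below 1 FPKM in Bcor-/- LSK, and primary granule, angiopoietin and stem cell factor lists the lowest (-3.07, -2.25 and -1.44).

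The pathways of the deleted genes were measured in 3 lists. Of 16 DNA methylation genes 3 fell and 1 rose, close to the 21.5% of all genes called: Dnmt3b, the other de novo methyltransferase, fell from 21.3 and 16.0 FPKM to 7.12 and 5.98 FPKM (-1.37 ± 0.25), Idh1 from 44.7 and 61.7 FPKM to 18 and 12.6 FPKM (WT 16.1 to 25.8 FPKM) and Idh2 from 170.3 and 184 FPKM to 100.4 and 77.3 FPKM, while Mbd2, a reader of methylated CpG, rose from 50.3 and 59.0 FPKM to 102 and 98.6 FPKM. Among 11 PRC1.1 subunits Usp7 rose (0.63 ± 0.17) and Skp1a fell (-0.70 ± 0.22), and among 21 other Polycomb subunits Phc2 rose (0.72 ± 0.16) and Rbbp7 fell (-0.60 ± 0.20). These shares, 2 of 11 and 2 of 21, compare with 21.5% of all genes. The calls of Usp7, Skp1a, Phc2 and Rbbp7 were lost whichever Bcor-/- library was left out, those of Dnmt3b and Mbd2 without replicate 1 and that of Idh2 without replicate 2. Rbbp7 and Skp1a were also not called without Bcor-/-Dnmt3a-/- replicate 2.

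Proliferation and survival genes were measured in 5 lists, to be read against 11.5% of all genes called higher and 9.97% called lower. Of these lists, the CDK inhibitors, p53 targets and Bcl2 family hold genes below 1 FPKM in one group, and over genes at 1 FPKM or more in both they gave 3, 2 and 4 higher and 1, 1 and 2 lower of 12, 25 and 17. DNA replication genes gave 1 higher and 1 lower of 36 (median -0.14), and mitosis genes 5 lower and none higher of 36 (median -0.65), including Kif2c, from 29.2 and 36.6 FPKM to 21.2 and 9.18 FPKM. Of 14 CDK inhibitors and D-type cyclins 3 rose, among them Cdkn1b (p27), from 23.5 and 17.3 FPKM to 37.8 and 55.6 FPKM, and Ccnd2 fell. Cdkn1a (p21) was at 29.2 and 27.4 FPKM and at 9.05 and 40.2 FPKM and was not called with both mice (called lower without mouse 2), nor was Trp53, at 103 and 113 FPKM against 84.6 and 60.3 FPKM. Trp53 was called lower over all 10 LSK libraries, with 1 variance or 1 weight a genotype, and without Bcor-/-Dnmt3a-/- replicate 1. Among p53 and its targets 3 rose and 2 fell of 29, with the repair gene Xpc down from 52.9 and 54.6 FPKM to 20.1 and 15.5 FPKM (-1.55 ± 0.20), and among 18 Bcl2 family genes 4 rose and 2 fell: the proapoptotic Bmf rose from 2.31 and 1.43 FPKM to 19.4 and 12.9 FPKM and Bcl2l11 (BIM) from 5.91 and 7.91 FPKM to 19.2 and 29.4 FPKM beside Bcl2l1. Of 14 genes of the Myc network and Myb list 2 rose and 2 fell (median 0.15), close to the shares of all genes called. Myc itself fell from 101 and 102 FPKM to 69.2 and 61.8 FPKM (-0.63 ± 0.16). In 17 ETS genes 4 rose and 2 fell, with Spib up from 1.75 and 0.832 FPKM to 43.6 and 165 FPKM, Ets1 from 13.4 and 14.0 FPKM to 97.8 and 108 FPKM (2.82 ± 0.16), and Spi1, which encodes PU.1, down from 106 and 134 FPKM to 72.1 and 72.3 FPKM. Glycolysis enzymes gave 9 lower and 1 higher of 24, with Hk3, the myeloid hexokinase, down from 161 and 219 FPKM to 24.8 and 29.5 FPKM and Bpgm, which makes the red cell metabolite 2,3-bisphosphoglycerate, up from 16.0 and 12.9 FPKM to 43.5 and 169 FPKM. Kif2c, Ccnd2, Myc and Bpgm lost their calls whichever Bcor-/- library was left out, and Cdkn1b and Spi1 without replicate 2. Ccnd2 was also not called without Bcor-/-Dnmt3a-/- replicate 1, nor Kif2c and Myc without replicate 2.

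The Bcor-/-Dnmt3a-/- mice differed from each other in whole groups of genes. By a rule that took the genes furthest apart between them while the Bcor-/- pair was within 0.5 log2 units, mouse 1 was high for Gfra2 (168 against 0.0767 FPKM), Bfsp2 (315 against 3.84 FPKM), Enpep (109.8 against 0.222 FPKM), Rag1 and Prdm14 (48.9 FPKM against 0), a germ cell and pluripotency factor listed at 0 in all other LSK libraries. Enpep and Rag1 are genes of precursor B cells. Mouse 2 was high for Siglech (347 against 3.27 FPKM), a marker of plasmacytoid dendritic cells, Hbb-bs, Mgp (55.0 against 0.398 FPKM), Klk1 (44.2 against 0.241 FPKM) and Fosb (891 against 25.4 FPKM). These genes were chosen for this spread, so their values are a description. The immediate early genes, which are switched on within minutes of a stimulus, summed to 1129 FPKM in mouse 1 and 7945 FPKM in mouse 2, against 4256 and 4036 FPKM in Bcor-/- LSK. C1qa, the complement gene of tissue macrophages, was at 360.3 FPKM in mouse 1 and 7.38 FPKM in mouse 2, against 56.5 and 37.0 FPKM in Bcor-/-.

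**Figure D4:**
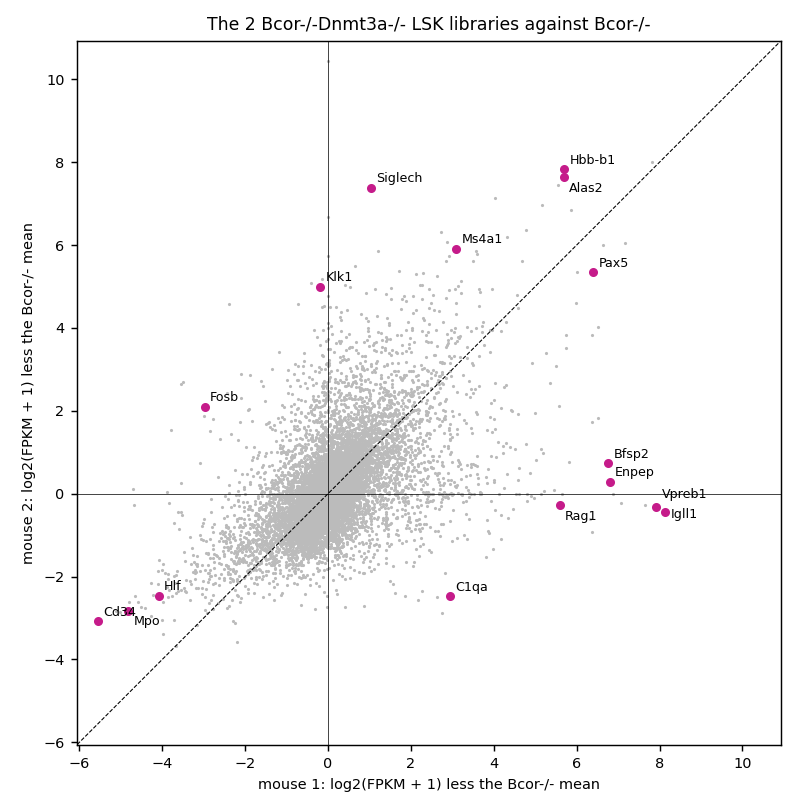
Change of each of 12017 genes from the Bcor-/- mean, in log2(FPKM + 1), in Bcor-/-Dnmt3a-/- mouse 1 (x axis) and mouse 2 (y axis), with named genes in colour and the dashed line where both mice are equal. Cd34, Hlf and Mpo are low and Hbb-b1, Alas2 and Pax5 high in both mice, whereas Igll1, Vpreb1 and Enpep lie on the axis of mouse 1 and Siglech and Klk1 near that of mouse 2.

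The Dnmt3a-/- label was also compared with Bcor intact, in 3 Dnmt3a-/- against 3 WT LSK libraries, which share no library with the main comparison. Here 98 of the 12017 genes (0.816%) passed the same call, 56 higher and 42 lower, and limma called 6 after adjustment. Across genes the effects of the comparisons had a Pearson r of -0.01. The difference between the effects, fitted over all 10 LSK libraries with a variance weight for each genotype, was called in 2467 genes (20.5%), 1403 more positive and 1064 more negative with Bcor lost, and 677 had an adjusted p under 0.05. At 1 FPKM or more in both groups of the main comparison, 15 of 23 stem cell factors were more negative, 10 of 23 red cell membrane genes more positive, and 11 of 14 T and NK genes more positive and 1 more negative. Of all 11007 such genes 9.53% were more positive and 8.57% more negative. In that fit the Bcor-/-Dnmt3a-/- libraries received the lowest weight, 0.176, against 1.29 to 1.70 for the other genotypes. A weight shared by all genes does not follow a single gene's spread between the Bcor-/-Dnmt3a-/- mice. Prdm14, high in mouse 1 only, was called in that fit (2.82) but not in the main comparison. The count of 677 is thus no stronger support than the 1 adjusted call of the main comparison. Cd34 differed by -4.36 ± 0.57 (adjusted p = 0.00528), with 573 to 650.1 FPKM in Dnmt3a-/- against 548 to 649.7 FPKM in WT. Slc22a3 differed by -3.71 ± 0.36 (adjusted p = 0.00465) and Alas2 by 6.37 ± 0.81 (adjusted p = 0.0052). Pax5 differed by 5.13 ± 0.58, but it averaged 0.245 FPKM in Bcor-/- LSK and was tested only through its level in Bcor-/-Dnmt3a-/-. With Bcor intact, 14 of 25 immediate early genes rose in Dnmt3a-/- against WT LSK (median 0.68), and 5 of 15 late neutrophil genes fell (median -1.09). For the latter list WT replicate 2 stood apart, at a sum of 10767 FPKM against 2320 and 2113 FPKM in WT replicates 1 and 3. The Dnmt3a-/- libraries lay at 1599 to 1947 FPKM, so much of this fall rests on 1 WT library. The study describes Dnmt3a deletion as partial in Dnmt3a-/- mice and complete only in leukemic double mutants. The degree of Dnmt3a loss may therefore differ between these comparisons. The Dnmt3a level was 11.3 to 16.9 FPKM in Dnmt3a-/- and 16.1 to 19.8 FPKM in WT LSK.

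In MEP of the same mice, 1145 of 11270 genes (10.2%) were higher and 949 (8.42%) lower in Bcor-/-Dnmt3a-/- than in Bcor-/-, with none called after adjustment, 2471 at an unadjusted p under 0.05 and a lowest adjusted p of 0.141. The difference between the LSK and MEP effects, taken within each mouse over 11119 genes, was called in 1202 (10.8%), 376 more positive in LSK and 826 more negative (7.43%), and in none after adjustment (1210 at an unadjusted p under 0.05). Without Bcor-/- replicate 1 or 2 this count was 435 and 479, and without Bcor-/-Dnmt3a-/- replicate 1 or 2 it was 3783 and 3278. Granulocytic markers moved in MEP as well, summing to 733 and 415 FPKM in Bcor-/- and 6315 and 13835 FPKM in Bcor-/-Dnmt3a-/- MEP. Macrophage markers summed to 1.73 and 1.84 FPKM against 767 and 8.34 FPKM and B cell markers to 15.6 and 2.65 FPKM against 817 and 93.8 FPKM, and their part in the difference was not tested. The near-alike LSK and MEP libraries of Bcor-/-Dnmt3a-/- mouse 1 (r 0.970) also enter it. All 15 late neutrophil genes were called more negative in LSK than in MEP, and 13 to 15 were when any 1 of the 4 replicates was left out. In MEP 14 of 15 rose (median 4.99): S100a8 was at 108 and 61.7 FPKM in Bcor-/- MEP and 2988 and 6713 FPKM in Bcor-/-Dnmt3a-/- MEP, a difference of -5.67 ± 0.92 from its LSK effect. Of 21 monocyte and macrophage genes 9 were also called more negative in LSK, but 2 and 1 without Bcor-/- replicate 1 or 2. Primary granule genes had a median of -0.26 in MEP against -3.07 in LSK, and 6 of 14 were called lower in the difference, but 2 and 1 without Bcor-/- replicate 1 or 2. Of 24 stem cell factors tested in MEP 6 fell and none rose by the call rule. Slc22a3 fell in MEP from 36.0 and 41.4 FPKM to 3.71 and 4.72 FPKM and Pf4 from 72.5 and 122 FPKM to 7.68 and 8.09 FPKM. Alas2 was at 1.91 and 1.49 FPKM in Bcor-/- MEP and at 88.3 and 4392 FPKM in Bcor-/-Dnmt3a-/- MEP. Hbb-b1 was listed at 0 in Bcor-/-Dnmt3a-/- MEP 2, where Hbb-b2 was at 30050.4 FPKM, so the globin median in MEP (1.97) includes a gene whose 0 may be a failed estimate.

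**Figure D5:**
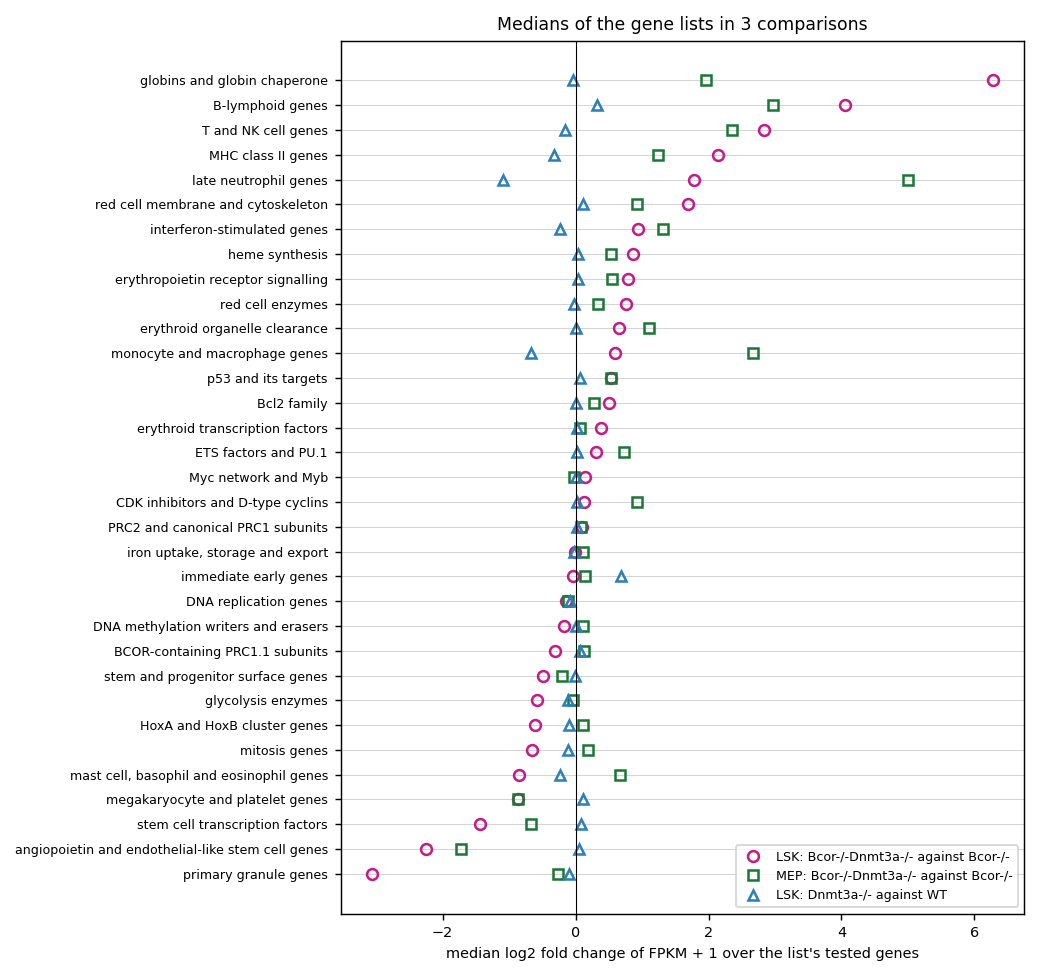
Median log2 fold change of FPKM + 1 (x axis) over the tested genes of each list in 3 comparisons: Bcor-/-Dnmt3a-/- against Bcor-/- in LSK (circles) and in MEP (squares), and Dnmt3a-/- against WT in LSK (triangles). Late neutrophil genes lie at 1.78 in LSK and 4.99 in MEP, primary granule genes at -3.07 and -0.26, and the triangles stay between -1.09 and 0.68.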

How the data were processed

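RNA-seq of sorted LSK and MEP cells under 10 mouse labels, 1 of which names a pair of mice, gave 20 libraries. The deposited values are FPKM per gene, normalized by the authors for gene length and library total. The submitters' processing notes name STAR 2.5.1b, SAMtools 1.9, Cufflinks 2.2.1 and the mm9 build, and the annotation is not given in the sources used here. Counts were not used here, so the depth is unknown and no counting interval is given. Libraries were grouped by the genotype in their labels, and 0 columns were left unmapped.

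Values were taken as log2(FPKM + 1), a scale that understates the change of low genes, and only genes averaging 1 FPKM or more across the 4 compared libraries were kept. limma 3.58.1 with a mean-variance trend (R 4.3.3) gave two-sided p-values, and calls needed an unadjusted p below 0.05 together with a change of over 1.5-fold, the study's own thresholds. Benjamini-Hochberg adjustment ran over all tested genes. Fold changes are log2(FPKM + 1) differences ± SE with 2 libraries a group. The moderated test had 4.39 degrees of freedom in total, 2 of them residual, and an exact two-sided permutation test of 2 against 2 libraries cannot go below p = 0.333, so no permutation p is given. The difference between the effects with Bcor lost and with Bcor intact was fitted over all 10 LSK libraries with 1 variance weight a genotype. For LSK against MEP, the difference was taken within each mouse. The fits were checked on simulated data with known changes.

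The named genes were the 8 largest called increases and 8 largest called decreases with non-overlapping groups and at least 10 FPKM in the higher group, up to 4 called members of each of 33 gene lists, a fixed set of lineage and pathway genes, and the 5 genes furthest apart in either direction between the Bcor-/-Dnmt3a-/- mice. Some genes that this rule takes are not reported here. The members and lists were chosen with earlier results of these data known. Genes outside the rule, such as Mir703, C1qa, S100a8, Camp, Igll1, Vpreb1, Ms4a1, Blk, Dntt, Hoxb7, Hoxb8, Cd22, Cd27, Procr, Slamf1, Tal1, Lcn2, Ngp, Nkg7, Ciita, Cd8b1, Ifit1 and Cebpa, were chosen after their values were seen. Lists were described by counts and medians with no set test. Promoter sequences are RefSeq, GRCm38.p6, matched by symbol, and motifs were searched on both strands with overlapping matches kept. The figures were drawn with matplotlib 3.10.9.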

Additional observations from a re-analysis of the deposited data

Results flagged for a closer look

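The change that went with the Dnmt3a-/- label differed between Bcor-/- and Bcor-intact LSK libraries for 59 of the genes named above. This was by a limma test of the difference itself with Benjamini-Hochberg adjustment over all 12017 genes. Its variance weight for each genotype does not follow a single gene's spread between the Bcor-/-Dnmt3a-/- mice. Genotype, disease and age cannot be told apart in this difference, and the Bcor-/-Dnmt3a-/- libraries went against several LSK markers. The values below are differences of log2(FPKM + 1) fold changes, Bcor-/-Dnmt3a-/- less Bcor-/- minus Dnmt3a-/- less WT, over 2, 2, 3 and 3 libraries, and their adjusted p ran from 0.0047 to 0.049. Among red cell, erythropoietin and iron genes the difference was more positive for Alas2 (6.37), Hba-a1 (6.65), Hbb-b1 (6.85), Hbb-b2 (5.76), Slc4a1 (5.94), Trim10 (4.44), Tmod1 (3.42), Socs2 (3.29), Fam132b (2.99), E2f2 (2.84), Bpgm (2.5), Bcl2l1 (1.96), Fech (1.91), Slc25a37 (1.68), Tfrc (1.59) and Klf3 (1.38), and more negative for Lmo2 (-1.56) and Tfr2 (-1.52). Among stem cell, angiopoietin and megakaryocyte genes the difference was more negative for Cd34 (-4.36), Adgrl4 (-4.02), Angpt1 (-3.71), Slc22a3 (-3.71), Pf4 (-3.52), Hlf (-3.43), Meis1 (-3.17), Hoxa9 (-2.66), Gata2 (-2.32), Cd27 (-2.28), Itga2b (-2.16), Kit (-2.01) and Mecom (-1.94). Among myeloid, macrophage and mast cell genes the difference was more positive for Marco (3.38), and more negative for Ctsg (-3.91), Mpo (-3.69), Cpa3 (-2.92), Csf3r (-2.75), Hk3 (-2.59) and Nkg7 (-2.15). Among lymphoid, MHC class II and interferon-stimulated genes the difference was more positive for Gimap4 (6.25), Ccl5 (5.94), Spib (5.61), Pax5 (5.13), Cd3g (5.13), Il7r (4.94), Cd8b1 (4.88), Cd22 (4.71), H2-Eb1 (4.2), Blk (4.22), H2-Aa (4.01), Tcf7 (3.86), Irf7 (3.24), Isg15 (2.97), Ets1 (2.93), Ciita (2.58) and Rsad2 (2.55). Among the remaining genes the difference was more positive for Bmf (2.5), and more negative for Xpc (-1.51), Dnmt3b (-1.49) and Idh2 (-0.9). Pax5, Cd3g, Cd8b1, Cd22, Blk, Tmod1, Fam132b and Marco averaged below 1 FPKM in Bcor-/- LSK. They were tested only through their level in Bcor-/-Dnmt3a-/- LSK, and Mecom only through its level in Bcor-/-, so their adjusted p-values are a description. Most genes of the list were chosen for their change in the comparison that forms one side of the difference, so the list is not independent evidence of direction. No difference between the LSK and MEP effects passed the adjusted threshold.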

How the results depend on the processing

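None of the 139 called named genes changed direction under those of the 16 alternative settings in which it was tested (126 were tested at a mean of at least 5 FPKM). These genes were chosen by their calls in the same libraries, and several settings leave the fold change as it was. This outcome was therefore largely fixed in advance. A minimum of 1 FPKM in both groups, chosen after seeing the data, left 2219 calls among 11007 genes and 117 of the 139. Calls came to 2684 with a pseudocount of 0.1, 2699 without the filter, 2069 at a mean of at least 5 FPKM, 2649 after quantile normalization (2312 shared with the reported calls), 2555 after centring, 2643 without the trend, 3746 over all 10 LSK libraries with 1 variance (2556 shared) and 2696 with 1 weight a genotype (2109 shared), where Lcn2, Ngp, Mir703 and Slamf1 lost their calls. A fold change above 2 left 1610 genes, 957 higher and 653 lower. Benjamini-Hochberg adjustment by limma left 1 gene, 1 higher and 0 lower, in the main comparison (2822 at an unadjusted p under 0.05), 677 in the difference from Bcor-intact LSK, 6 in Dnmt3a-/- against WT (549 unadjusted), 0 in MEP (2471 unadjusted) and 0 in LSK against MEP (1210 unadjusted). A pseudocount of 0.1 raised the Dnmt3a-/- against WT count from 98 to 169.

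Leaving out 1 library at a time gave 785 to 4839 called genes, 514 to 2577 higher and 271 to 2262 lower. The lone library left in a group is then assumed to vary like the other group. Of the 139 named calls, 98 held without Bcor-/- replicate 1, 99 without Bcor-/- replicate 2, 135 without Bcor-/-Dnmt3a-/- replicate 1 and 129 without replicate 2. The LSK against MEP count ranged from 435 (without Bcor-/- replicate 1) to 3783 (without Bcor-/-Dnmt3a-/- replicate 1). The difference from Bcor-intact LSK ranged from 1729 to 2428 with the weights of the full fit and was 3148 with 1 variance. Of the 31 named genes that were not called, 14 changed sign or, for Prdm14, reached 0 when single libraries were left out. Their log2 fold changes ran from -1.54 to 0.49 for Cdkn1a, -2.98 to 2.10 for Fosb, -0.93 to 6.36 for Gfra2, -0.28 to 5.59 for Rag1, -2.48 to 2.95 for C1qa, -0.13 to 0.296 for S100a8, -0.45 to 8.14 for Igll1, -0.33 to 7.92 for Vpreb1, -0.19 to 4.80 for Hoxb8 and 0 to 5.64 for Prdm14 (also 0 to 5.64 in its difference from Bcor-intact LSK), each lowest or highest without Bcor-/-Dnmt3a-/- replicate 1. They ran from -0.19 to 5.0 for Klk1, -0.15 to 5.18 for Mgp and -0.054 to 0.283 for Camp (-0.066 after quantile normalization), each lowest without Bcor-/-Dnmt3a-/- replicate 2, and from -0.099 to 0.037 for Tal1. The cause was not tested.

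The replicate numbers are only names of different mice, and same-numbered libraries did not deviate together (Pearson r -0.05 across 12017 genes). With the replicate number as a replicate block, 2235 genes were called, 1249 higher and 986 lower, and 132 of the 139 named calls held.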
